A study of Homo sapiens with 24 samples.

Results

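The 10 genes described here are WNT5A and WNT5B, 4 Frizzled receptor genes (FZD1, FZD2, FZD6 and FZD7), the co-receptor gene LRP6, the transcription factor genes TCF7L1 and TCF7L2, and CTNNB1, which encodes β-catenin. They were taken as a named list from 57500 gene identifiers counted in each of 24 libraries, and WNT5B was chosen by its measured values at 12 h, where it was higher in the miR-497-5p pull-down and lower in RNA-seq. The list was thus selected on the 12 h comparisons of the mimics, and the members' 12 h effects are given as descriptions without a test.

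The cells were H2052, an established human line of pleural mesothelioma, which is a cancer of the membrane around the lung. All libraries came from cells transfected with 20 nM of a microRNA mimic biotinylated at its 3′ end, using Lipofectamine RNAiMAX. The mimic was either a scrambled non-targeting sequence, labelled Control, or miR-497-5p, labelled miR-497-5p-RE, and the cells were collected at 12 h or 72 h. Control cells thus also carried a biotinylated mimic, and the labels list no untransfected group. At each time, poly(A) RNA was sequenced both from the input (RNA-seq) and from the pull-down, the RNA held by streptavidin beads in a cytoplasmic extract. The 8 groups, made of 2 assays, 2 times and 2 mimics, held 3 libraries each. A single established line and a mimic given from outside limit the model: the amount of miR-497-5p reached in the cells is not measured in these files.

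Wnt ligands are secreted lipid-modified proteins that bind Frizzled receptors. In the canonical branch, a Frizzled with LRP5 or LRP6 stops the destruction of β-catenin, which then enters the nucleus and acts with TCF/LEF factors on target genes. WNT5A and WNT5B are known mainly for branches that run through planar polarity proteins, calcium or the receptors ROR2 and RYK, and mesothelial and mesothelioma cells are known to make Wnt ligands and Frizzleds. MicroRNAs such as miR-497-5p, of the miR-15/16 family, guide Argonaute proteins to matching sites, mostly in 3′ UTRs, and lower the level or the translation of the mRNA.

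The mature miR-497-5p sequence is shown first, because every site below is read against its seed, bases 2 to 8, in capitals. RefSeq (GRCh38.p14) places it at chr17:7017979-7017999 on the minus strand, within MIR497.
hsa-miR-497-5p: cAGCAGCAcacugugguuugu
The words searched on the transcript strand were TGCTGCT, the match to the seed (a 7mer-m8 site), the same word followed by A (an 8mer), GCTGCTA (a 7mer-A1) and GCTGCT (a 6mer). Each site was counted once, under the longest word it held. Among 19246 genes, each with its longest 3′ UTR in GENCODE release 44, 22.9% held an 8mer or a 7mer-m8. Among the members, 3 did: WNT5B, FZD6 and LRP6. Searching every annotated 3′ UTR added no further member. Such a word was not in every annotated 3′ UTR of these genes: it occurred in 2 of 4 for WNT5B, 2 of 3 for FZD6 and 1 of 3 for LRP6. The sites of WNT5B and LRP6 and the nearest word of WNT5A are printed with up to 18 bases before and 4 after, the matching word in capitals.
WNT5B 3′ UTR, 7mer-m8, chr12:1647075-1647081, plus strand: gggaggggaagcttgagcTGCTGCTgtca
LRP6 3′ UTR, 7mer-m8, chr12:12120919-12120925, minus strand: ttcttaaaacagcagattTGCTGCTtgtg
LRP6 3′ UTR, 7mer-m8, chr12:12116335-12116341, minus strand: tgcaagtgaaggatctggTGCTGCTttca
WNT5A 3′ UTR, 7mer-A1, chr3:55469562-55469568, minus strand: cctcccttccccagcaggGCTGCTAgctt
The WNT5B site lay in a 3′ UTR of 960 bases. Of the UTRs within 25% of that length, 16.7% held an 8mer or a 7mer-m8. A 6mer overlapped it 2 bases upstream. The 3′ UTR of LRP6 was 5101 bases long, and 49.2% of UTRs of like length held such a word. It also held a 7mer-A1. FZD6 held 1 7mer-m8 in a UTR of 1357 bases (21.5% of like UTRs). FZD7 and TCF7L2 held a 6mer each, and FZD1, FZD2, TCF7L1 and CTNNB1 held none of the 4 words.

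Coding sequences were searched with the same words, because the ligand pair shares one there. An 8mer or a 7mer-m8 occurred in the coding sequence of 34.6% of 19061 MANE Select transcripts, and in 5 members: WNT5A (1), WNT5B (3), FZD1 (4), FZD2 (3) and CTNNB1 (1). In the 5′ UTR of these transcripts TCF7L2 alone of the members held such a word (1), and the share over all transcripts is not given. WNT5A held its 8mer at base 1084 of the coding sequence and WNT5B a 7mer-m8 at base 1021. All 18 bases before the word were the same in both.
WNT5A coding sequence, 8mer: cactgcaagttccactggTGCTGCTAcgtc
WNT5B coding sequence, 7mer-m8: cactgcaagttccactggTGCTGCTtcgt
A match is a string of letters and was not tested as a binding site. The deposited FZD2 row covered 184 of the 1876 bases of its 3′ UTR, so its counts leave out reads from the other 1692 bases.

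The RNA-seq libraries held 21561816 to 30602007 counts and the pull-down libraries 8262425 to 30650982, the lowest being replicate 2 of the 72 h miR-497-5p pull-down. The biological coefficient of variation over an assay's libraries was 0.06 in RNA-seq and 0.349 in the pull-down. Levels are CPM, counts relative to the library size after TMM scaling within each assay. Effects are log2 fold changes from edgeR's quasi-likelihood test ± the standard error, with Benjamini-Hochberg adjusted p over all genes tested and a threshold of 0.05. All 10 members passed the filter on low counts in every comparison. The summed level of 11 mesothelial markers was 2270 to 3100 CPM in RNA-seq, in which MSLN averaged 50.2 to 71.4 CPM over groups, WT1 10.7 to 20.8 CPM, CALB2 at most 1.8 CPM and UPK3B at most 0.361 CPM. These named genes made up little of the sum. The list also holds the keratins KRT8, KRT18 and KRT19, so the sum alone does not show mesothelial identity. Squamous epithelial markers (13 genes) differed between libraries of a single group at 12 h, from 38.5 to 646 CPM in the miR-497-5p RNA-seq libraries and from 30.5 to 459 CPM in the control pull-down. They summed to at most 24 CPM at 72 h, and SPRR3 was at 0 there. Their part in the results was not tested; each 12 h effect given within an assay is followed by its range with each of the 6 libraries left out in turn.

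**Figure D1:**
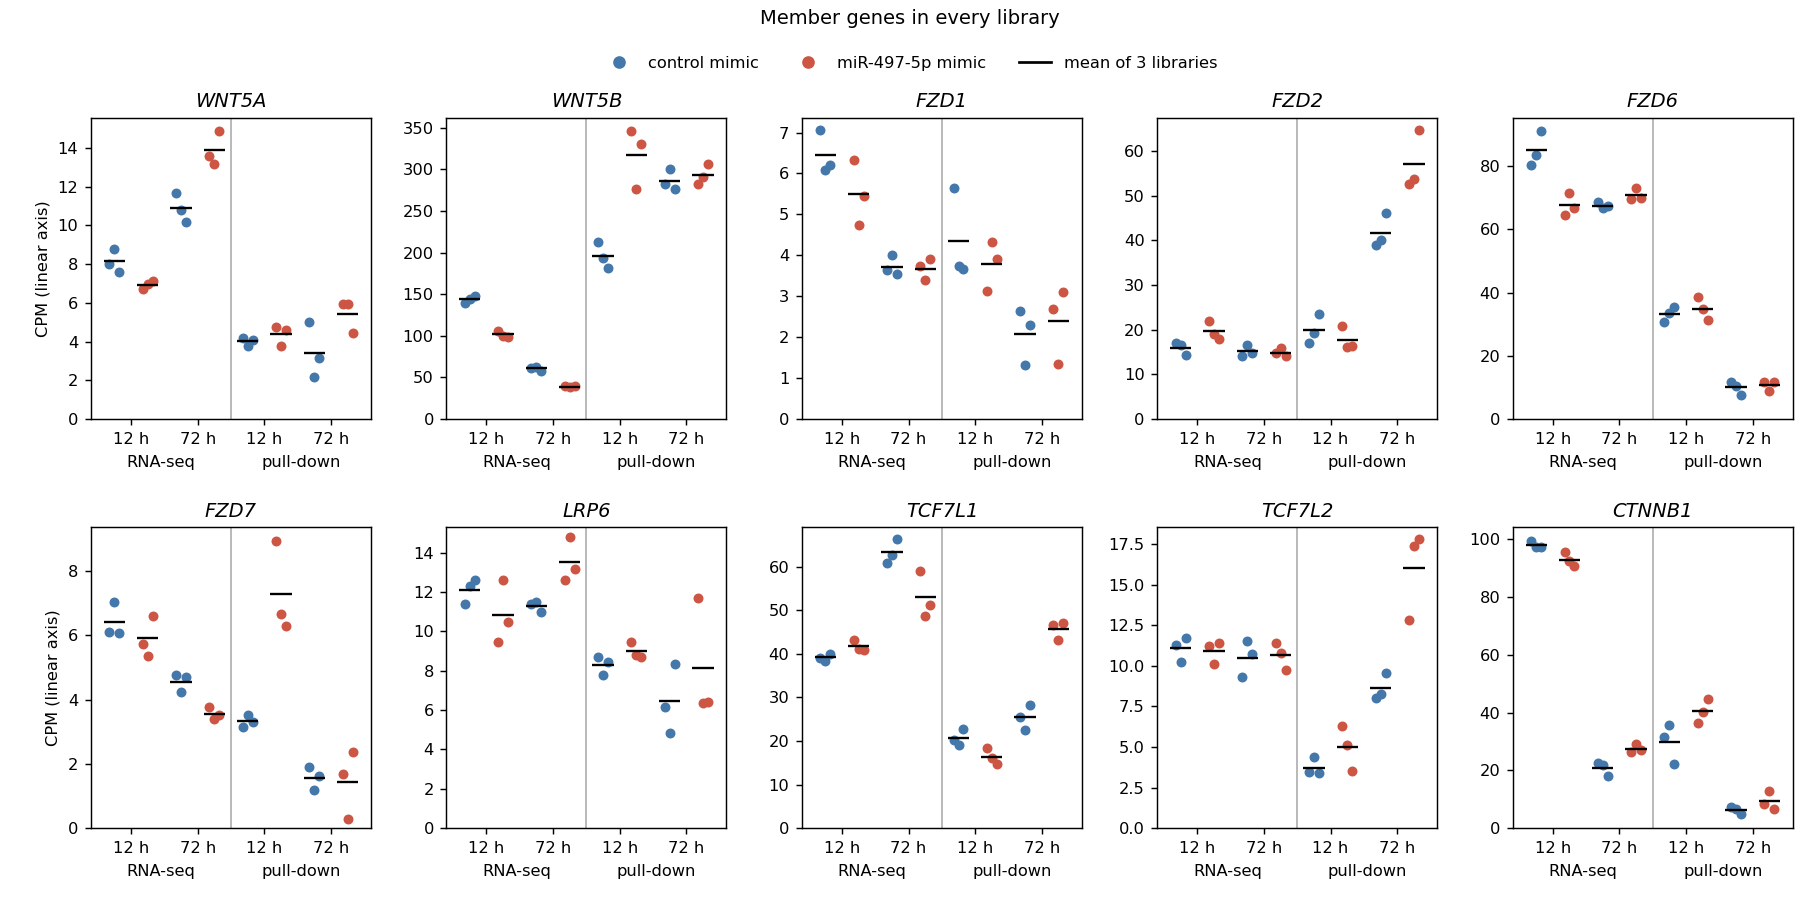
CPM (linear axis from 0) of each of the 10 genes in all 24 libraries, RNA-seq to the left of the grey line and pull-down to the right, control mimic in blue and miR-497-5p mimic in red, with black bars for the mean of 3 libraries. WNT5B is lower with miR-497-5p in RNA-seq at both times and higher in the pull-down at 12 h, and TCF7L1 and TCF7L2 are higher in the pull-down at 72 h.

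WNT5B was the most abundant member per length in control cells at 12 h, with an RPKM (CPM per kilobase of counted exon) of 33.4 ± 1.02 (SD, n = 3). FZD6 followed with 20.9 ± 1.34, CTNNB1 with 14.8 ± 0.189, TCF7L1 with 8.88 ± 0.19 and FZD2 with 7.56 ± 0.719, and no neighbours among these overlapped. FZD7 (1.66 ± 0.141) and TCF7L2 (1.64 ± 0.113) overlapped, as did LRP6 (1.17 ± 0.0579) with WNT5A (1.08 ± 0.0796) and WNT5A with FZD1 (0.926 ± 0.0762). The RPKM of FZD2 rests on a counted exon length of 2112 bases.

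The order differed at 72 h in control cells. FZD6 then led with an RPKM of 16.6 ± 0.223, TCF7L1 (14.4 ± 0.629) overlapped WNT5B (14.1 ± 0.62), and FZD2 (7.22 ± 0.583) came before CTNNB1 (3.14 ± 0.365). TCF7L2, at 1.56 ± 0.163, overlapped WNT5A, at 1.45 ± 0.0999, and FZD7 (1.18 ± 0.0758) overlapped LRP6 (1.09 ± 0.0253). The lowest was FZD1 at 0.534.

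**Figure D2:**
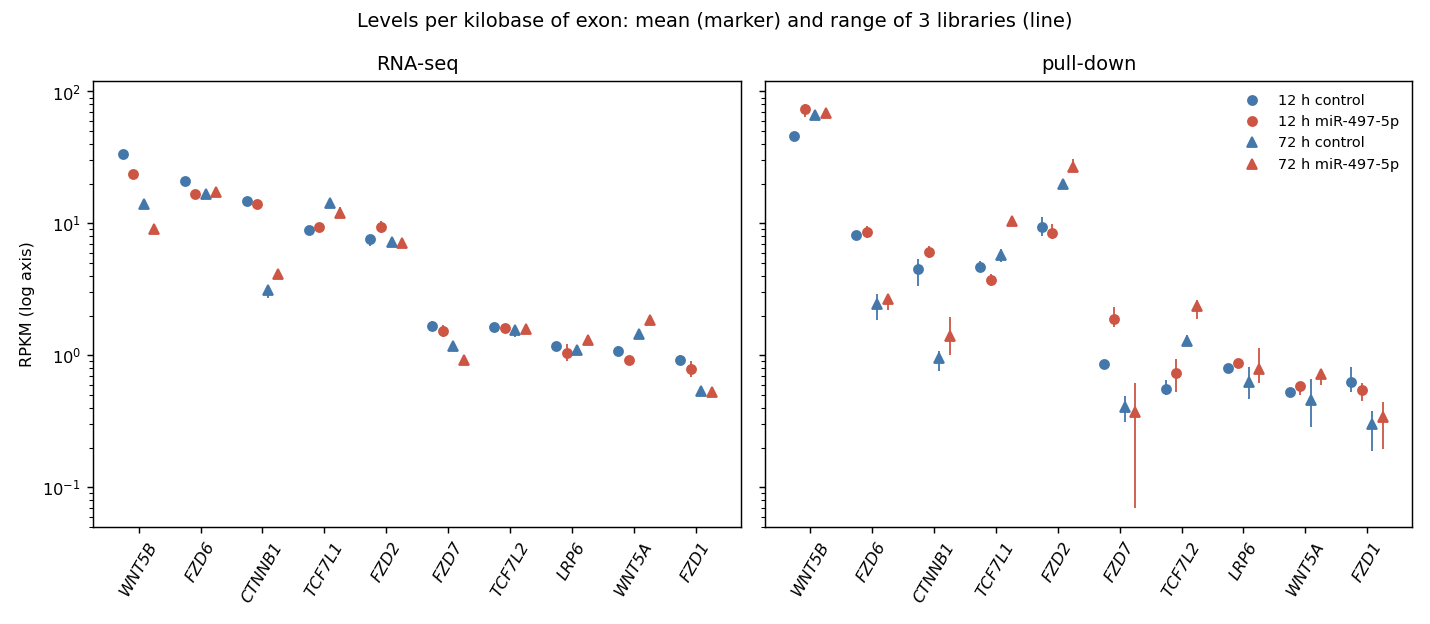
RPKM (log axis) of the 10 genes in RNA-seq (left) and pull-down (right), ordered by the 12 h control RNA-seq level, with circles for 12 h, triangles for 72 h, blue for control mimic, red for miR-497-5p and lines for the range of 3 libraries. WNT5B leads the 12 h RNA-seq libraries and all pull-down groups, and CTNNB1 sits far lower at 72 h than at 12 h in RNA-seq (3.14 against 14.8 in control cells).

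Between 12 h and 72 h the control cells themselves changed, which sets the baseline for the mimic effects. Of all genes tested in this contrast, 74.4% were called (36.1% higher and 38.4% lower at 72 h); of the members, 2 were called higher and 5 lower. CTNNB1 fell from 99.4, 97.2 and 97.2 CPM to 22.5, 21.8 and 18 CPM, a log2 change of -2.24 ± 0.06 (adjusted p = 1.58e-33 by edgeR). WNT5B fell from 139, 144 and 148 CPM to 61.5, 63 and 57.9 CPM, a log2 change of -1.24 ± 0.04. No test is given for WNT5B here, because its 12 h control libraries helped to choose it, though it is counted among the 5 lower. In both genes the groups were far apart, with every 72 h library below every 12 h library.

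Among the receptors, FZD1 (log2 change -0.79 ± 0.14, adjusted p = 1.93e-06), FZD7 (-0.49 ± 0.13, adjusted p = 0.000866) and FZD6 (-0.33 ± 0.05, adjusted p = 3.63e-08) also fell with time. TCF7L1, a TCF factor often described as a repressor, rose from 39.1, 38.4 and 40.1 CPM to 61, 62.7 and 66.5 CPM (0.69 ± 0.06, adjusted p = 4.14e-15). WNT5A rose from 8.03, 8.79 and 7.61 CPM to 11.7, 10.8 and 10.2 CPM (0.42 ± 0.10, adjusted p = 0.000265). FZD2 (-0.06), LRP6 (-0.10) and TCF7L2 (-0.08) were not called. Library-total scaling moved the median of all genes to -0.25; with it WNT5A was at 0.17 (adjusted p = 0.124), FZD6 at -0.58, FZD7 at -0.74 and TCF7L1 at 0.45, FZD2, LRP6 and TCF7L2 were called lower, and the members counted 1 higher and 8 lower. An offset for transcript GC and length turned TCF7L2 to 0.22 (adjusted p = 0.0367) and put WNT5A at 0.67 and FZD6 at -0.10 (adjusted p = 0.0152).

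The 12 h mimic comparison is described from WNT5B, the gene it chose. In RNA-seq, WNT5B was at 139, 144 and 148 CPM with control and 106, 100 and 99 CPM with miR-497-5p, a log2 difference of -0.50 ± 0.04, and 4.5% of genes tested had a lower value. In the pull-down it was at 213, 194 and 182 CPM with control and 346, 277 and 330 CPM with miR-497-5p, a difference of 0.69 ± 0.10. All 3 miR-497-5p libraries lay below the control libraries in RNA-seq and above them in the pull-down. With 1 library left out these values ran from -0.53 to -0.48 and from 0.65 to 0.77. The effects of the assays differed by 1.22 ± 0.11 (pull-down minus RNA-seq), in a joint fit where the assays shared each gene's spread.

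WNT5A, the other ligand, was at 8.03, 8.79 and 7.61 CPM with control and 6.71, 6.97 and 7.11 CPM with miR-497-5p in 12 h RNA-seq (-0.23 ± 0.10), without overlap, and -0.28 to -0.17 with 1 library left out. Its pull-down libraries overlapped, at 4.19, 3.77 and 4.06 CPM against 4.77, 3.78 and 4.62 CPM (0.13 ± 0.41, and 0.08 to 0.22 with 1 left out).

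Of the Frizzleds, which bind the ligands, FZD6 was at 80.2, 83.6 and 90.9 CPM with control and 64.4, 71.6 and 66.7 CPM with miR-497-5p in 12 h RNA-seq (-0.33 ± 0.05, and -0.37 to -0.28 with 1 left out), with all treated libraries lower. FZD2 was higher with miR-497-5p, at 22, 19.1 and 18 CPM against 17.1, 16.5 and 14.3 CPM (0.30 ± 0.08, and 0.22 to 0.36). FZD7 was at 8.93, 6.67 and 6.28 CPM with miR-497-5p against 3.15, 3.53 and 3.29 CPM with control in the 12 h pull-down (1.13 ± 0.51, and 0.99 to 1.22). This log2 difference was larger than that of WNT5B (0.69 ± 0.10), but its standard error spans the gap between them. Its RNA-seq libraries overlapped (-0.11 ± 0.13, and -0.21 to -0.04), its difference between the assays was 1.27 ± 0.28, and the only match in its 3′ UTR was a 6mer. The error of 0.28 comes from the joint fit with a shared spread and is below the 0.51 of the pull-down effect alone. FZD1 overlapped in both assays.

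LRP6, with 2 7mer-m8 words in its 3′ UTR, overlapped in RNA-seq (-0.16 ± 0.10, with a range from -0.28, without replicate 2 of miR-497-5p, to -0.07, without its replicate 1) and differed by 0.11 ± 0.31 in the pull-down (0.06 to 0.15). TCF7L1 was higher in RNA-seq (0.09 ± 0.06, and 0.07 to 0.11 with 1 left out) and lower in the pull-down, at 18.3, 16.1 and 14.8 CPM against 20.2, 19 and 22.8 CPM (-0.34 ± 0.17, and -0.41 to -0.25), with no overlap in either. CTNNB1 was at 95.5, 92.6 and 90.7 CPM against 99.4, 97.2 and 97.2 CPM in RNA-seq (-0.08 ± 0.05, and -0.10 to -0.06) and at 36.3, 40.2 and 44.8 CPM against 31.5, 35.6 and 22.3 CPM in the pull-down (0.44 ± 0.22, with a range from 0.28, without control replicate 3, to 0.58). TCF7L2 overlapped in both assays.

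The members' calls for the mimic effect at 12 h are part of how the list was chosen and are not given. Of all genes, 12.5% were called in RNA-seq (7.25% higher and 5.3% lower) and 0.595% in the pull-down. As a description, 6 members had groups that did not overlap in RNA-seq, against 25.7% of all genes. That count comes from a comparison that chose the list, so it is not read as an excess.

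At 72 h, which the choice of WNT5B did not use, RNA-seq called 6 of the 10 members: WNT5A, LRP6 and CTNNB1 were higher and WNT5B, FZD7 and TCF7L1 lower. This share lies close to the background, since 57.5% of all genes were called (27.9% higher and 29.6% lower). The median effect of the members was 0.00, as was that of all genes. Transcript GC content moved with this comparison: across 17185 genes the log2 fold change had a Spearman rho of -0.42 with GC, a description over genes that share the same libraries. The 3 members called higher had a GC content of 40.9 to 44.7% and the 3 called lower 56.4 to 61.4%. A fit with a per-library offset for transcript GC and length, chosen after seeing the data, is therefore given beside the 72 h calls that it ends, adds, turns or moves by over 1.5 times, and beside the list counts that it changes. With it the members counted 3 higher (CTNNB1, FZD2 and TCF7L1) and 2 lower (WNT5B and FZD6).

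WNT5B fell at 72 h as well, from 61.5, 63 and 57.9 CPM with control to 39.7, 38.2 and 39.4 CPM with miR-497-5p. The log2 fold change was -0.64 ± 0.05 (edgeR adjusted p = 8.58e-16), with all treated libraries below all controls. With the GC and length offset it was -0.27 ± 0.04 (adjusted p = 7.16e-08), so the size but not the call depended on it. In bulk RNA, a fall in some cells and a smaller fall in all cells cannot be told apart.

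CTNNB1 was higher with miR-497-5p at 72 h, at 26.4, 29.1 and 27 CPM against 22.5, 21.8 and 18 CPM. No library overlapped, and the log2 fold change was 0.41 ± 0.06 (adjusted p = 3.1e-07), or 0.28 (adjusted p = 3.17e-05) with the offset.

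WNT5A was at 13.6, 13.2 and 14.9 CPM with miR-497-5p and 11.7, 10.8 and 10.2 CPM with control (0.35 ± 0.10, adjusted p = 0.00257). Its treated libraries were all higher, the opposite side from 12 h, but with the offset the value was 0.11 (adjusted p = 0.345). TCF7L1 was at 59.1, 48.8 and 51.3 CPM with miR-497-5p and 61, 62.7 and 66.5 CPM with control (-0.26 ± 0.06, adjusted p = 0.000127). The offset turned TCF7L1 to 0.15 (adjusted p = 0.00667), so no direction is drawn for it in RNA-seq.

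FZD7, at 3.78, 3.39 and 3.52 CPM against 4.76, 4.23 and 4.7 CPM, was past the threshold narrowly (-0.35 ± 0.15, adjusted p = 0.0361). The call was lost with DESeq2 (adjusted p = 0.0802), without the filter on low counts (0.0556), with the offset (-0.05, adjusted p = 0.822) and without control replicate 1 or 3 or miR-497-5p replicate 2 or 3 (0.0831 to 0.105). LRP6, at 12.6, 14.8 and 13.2 CPM against 11.4, 11.5 and 11 CPM, had a log2 fold change of 0.26 ± 0.10 (adjusted p = 0.022). Its call was lost under library totals (0.16, adjusted p = 0.196), without the filter (0.0685), with the offset (-0.02, adjusted p = 0.858), without control replicate 3 (0.0741) and without miR-497-5p replicate 2 (0.137).

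The remaining receptors and TCF7L2 were not called in RNA-seq at 72 h. FZD6, lower in all treated libraries at 12 h, was at 69.5, 73 and 70 CPM against 68.5, 66.7 and 67.2 CPM (0.07 ± 0.05, adjusted p = 0.224). FZD1 had a value of -0.02 ± 0.15 (adjusted p = 0.941), FZD2 of -0.03 ± 0.09 (0.788) and TCF7L2 of 0.02 ± 0.10 (0.904). With the offset FZD2 was at 0.27 (adjusted p = 0.00377) and FZD6 at -0.18 (adjusted p = 8.08e-05), each on the other side of 0.

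**Figure D3:**
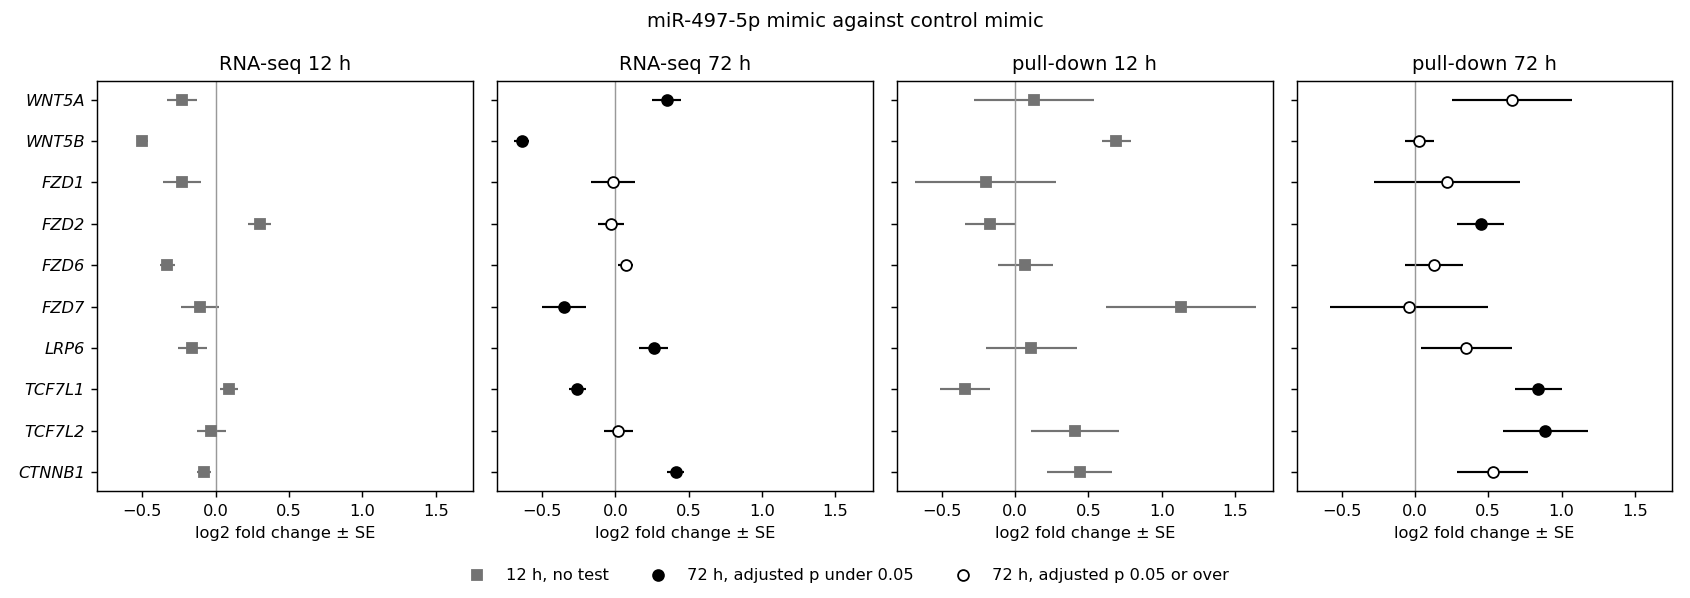
Log2 fold change of miR-497-5p over control ± SE for the 10 genes in RNA-seq and pull-down at 12 h and 72 h; grey squares mark the untested 12 h values, filled circles a 72 h adjusted p under 0.05 and open circles the rest. WNT5B lies left of 0 in RNA-seq at both times (-0.50 and -0.64), while TCF7L1 and TCF7L2 lie furthest right in the 72 h pull-down (0.84 and 0.89).

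In the 72 h pull-down 3 members were called higher with miR-497-5p (TCF7L1, TCF7L2 and FZD2) and none lower, against 22.7% of all genes called (10.2% higher), and 4 were called higher with the offset. TCF7L1 was at 46.7, 43.2 and 47.2 CPM with miR-497-5p and 25.6, 22.5 and 28.3 CPM with control, with a wide gap between the groups. Its log2 fold change was 0.84 ± 0.16 (adjusted p = 0.000388) and 1.06 with the offset (adjusted p = 2.61e-05). None of the 4 site words occurred in its 3′ UTR, and neither a 7mer-m8 nor an 8mer in its coding sequence.

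TCF7L2, the partner of β-catenin best known from gut and pancreas, was at 12.8, 17.4 and 17.8 CPM with miR-497-5p and 8.03, 8.23 and 9.54 CPM with control. The groups did not overlap (0.89 ± 0.29, adjusted p = 0.0278). The call was lost without the filter (adjusted p = 0.0669) and without any of the control replicates or miR-497-5p replicate 2 or 3 (0.0535 to 0.113). FZD2 was at 52.6, 53.7 and 64.8 CPM against 38.9, 40.2 and 46.1 CPM (0.45 ± 0.16, adjusted p = 0.0494). Its call was lost without any single library of the comparison (0.0606 to 0.227) and without the filter (0.0885), and the adjusted p was 0.00631 with the offset, where the value was 0.63.

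WNT5B no longer differed detectably in the pull-down: 282, 291 and 307 CPM with miR-497-5p against 282, 300 and 276 CPM with control (0.03 ± 0.10, adjusted p = 0.865). With the offset it was at 0.26 (adjusted p = 0.0321). CTNNB1 was at 8.46, 13 and 6.62 CPM against 7.14, 6.72 and 5.04 CPM (0.53 ± 0.24, adjusted p = 0.123), with overlap. It was called without miR-497-5p replicate 3 (0.73, adjusted p = 0.0454) and was at 0.25 without replicate 2 (adjusted p = 0.538). FZD7 rested on 2 reads in the shallowest library and 31 to 42 in the others, so its value of -0.04 ± 0.54 carries little information. WNT5A (0.66 ± 0.41, adjusted p = 0.284), FZD1 (0.22 ± 0.50), LRP6 (0.35 ± 0.31) and FZD6 (0.13 ± 0.20) were not called.

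The difference between the pull-down effect and the RNA-seq effect at 72 h was tested in a joint fit of both assays. That fit shared each gene's spread between the assays, although their coefficients of variation were 0.06 (RNA-seq) and 0.349 (pull-down). The difference was called for 3 members, all higher in the pull-down, against 14.5% of all genes called (7.46% higher and 7.01% lower). In these 3 its standard error was below that of the pull-down effect alone, at 0.10 for WNT5B, 0.16 for TCF7L1 and 0.29 for TCF7L2. For some members not called it was above. The calls may therefore look firmer than the pull-down allows. TCF7L1 had a difference of 1.09 ± 0.14 (adjusted p = 3.61e-05), WNT5B of 0.65 ± 0.07 (adjusted p = 8.33e-06) and TCF7L2 of 0.85 ± 0.25 (adjusted p = 0.0311). For WNT5B the separate effects were -0.64 in RNA-seq and 0.03 in the pull-down, and for TCF7L2 0.02 and 0.89. The TCF7L1 and WNT5B calls held with the offset (0.93 and 0.56). The TCF7L2 call was lost without the filter (adjusted p = 0.0839) and without RNA-seq control replicate 2 or 3, any RNA-seq miR-497-5p replicate or pull-down miR-497-5p replicate 3 (0.0579 to 0.103). FZD2, at 0.46 ± 0.16, missed the threshold (adjusted p = 0.0623) and passed it with library totals (0.60, adjusted p = 0.0143) and without pull-down control replicate 3 (0.0294) or pull-down miR-497-5p replicate 1 (0.0384).

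The control pull-down gives the background of what beads and a scrambled mimic held. Calls against the input were common: 46.6% of all genes were called at 12 h (19.7% higher and 26.9% lower) and 63.8% at 72 h (29.7% higher and 34.1% lower). The share of all genes called the same way at both times is not given, so the members are described singly. WNT5B was over-represented relative to RNA-seq by 0.63 ± 0.08 on the log2 scale at 12 h. No test is given for this value, because the 12 h control libraries helped to choose WNT5B. At 72 h its value was 2.47 ± 0.05 (adjusted p = 6.53e-17). FZD2 was over-represented by 0.51 ± 0.15 at 12 h (adjusted p = 0.0107) and, more strongly, by 1.68 ± 0.11 at 72 h (adjusted p = 4.61e-10). At 12 h the call was lost with library totals (0.34, adjusted p = 0.0689) and without replicate 3 of either control group (0.0692 and 0.0753). High pull-down levels of both genes were thus also present with the control mimic.

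Under-represented at both times were FZD6 (-1.17 ± 0.10 and -2.52 ± 0.13), CTNNB1 (-1.53 ± 0.13 and -1.49 ± 0.21), TCF7L1 (-0.73 ± 0.11 and -1.09 ± 0.10), WNT5A (-0.84 ± 0.18 and -1.44 ± 0.26) and FZD7 (-0.76 ± 0.20 and -1.31 ± 0.45). At 72 h the FZD7 call was lost without RNA-seq control replicate 1 (adjusted p = 0.0529) or 3 (0.0509). TCF7L2 was under-represented at 12 h (-1.38 ± 0.21, adjusted p = 3.89e-05) and not called at 72 h (-0.06 ± 0.18), where the offset gave 0.44 (adjusted p = 0.0465). Its 72 h values under the alternatives ran from -0.44 to 0.44. Besides the offset, 1 alternative called it, on the lower side (adjusted p = 0.0431), so no direction is drawn. FZD1 was not called at 12 h (-0.38 ± 0.23) or 72 h (-0.61 ± 0.37), and 1 alternative called it lower at 72 h (adjusted p = 0.0253). LRP6 was called only at 72 h (-0.58 ± 0.25, adjusted p = 0.049), and that call was lost with the offset (-0.04) and without any of 5 libraries (0.0764 to 0.161). GC content moved with this contrast too, with a Spearman rho across genes of 0.40 at 12 h and 0.44 at 72 h. With the offset the 12 h call of WNT5A was lost (-0.30, adjusted p = 0.234). The 12 h values of WNT5B (0.38), FZD6 (-0.53) and TCF7L2 (-0.91) were nearer to 0, with FZD6 and TCF7L2 still called. At 72 h those of FZD6 (-1.47), CTNNB1 (-0.89) and WNT5A (-0.79) were nearer to 0 and that of TCF7L1 (-1.81) further from it, all still called. Library totals put LRP6 at -0.96 at 72 h and gave it a call at 12 h (-0.52, adjusted p = 0.01).

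The genes nearest to WNT5B in pattern were MMP15, a membrane metalloproteinase, SNX8, a sorting nexin, and NOSIP, among 9671 genes with at least 5 CPM on average in each assay. The root mean square difference over the 8 group means, on a centred log2 scale, was 0.32, 0.38 and 0.385. MMP15 had 10.9 ± 0.808 CPM in the 12 h control RNA-seq and 13.2 ± 1.13 CPM in the 12 h control pull-down. With miR-497-5p the 12 h values were 10.3 ± 1.02 CPM in RNA-seq and 20.3 ± 3.77 CPM in the pull-down. At 72 h RNA-seq went from 6.36 ± 1.25 CPM with control to 2.81 ± 0.221 CPM with miR-497-5p and the pull-down from 30.4 ± 3.77 to 17.3 ± 3.12 CPM, where the log2 fold change of WNT5B in the pull-down was 0.03. SNX8 and NOSIP had lower 12 h pull-down means with miR-497-5p, at 94 ± 5.47 against 112 ± 13.9 CPM and 120 ± 8.5 against 127 ± 31.2 CPM, the other side from WNT5B. The measure covers the 8 levels as a whole, not each mimic effect. WNT5A was below the 5 CPM limit in the pull-down and was not compared in this way.

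The rest of the pathway was read from a list of 125 further Wnt genes. At 12 h in RNA-seq 104 could be tested: 6 were higher and 7 lower with miR-497-5p, 12.5% of the list and 12.5% of all genes. Their median was -0.05, against 0.01 for all genes. Library totals gave 2 higher and 19 lower. In the 12 h pull-down edgeR called none of 106 list genes, 13 had an unadjusted p under 0.05, and DESeq2 called 0 higher and 2 lower.

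At 72 h in RNA-seq 27 of the 104 rose and 42 fell, 66.3% against 57.5% of all genes; with the GC and length offset the split was 37 higher and 32 lower. The median was -0.10, against 0.00 for all genes, and 0.03 with the offset. The ligand list apart from WNT5A and WNT5B counted 1 higher and 4 lower of 9 tested. WNT7B fell from 22.5 ± 1.14 to 8.2 ± 0.418 CPM (-1.46 ± 0.10, adjusted p = 2.21e-17) and WNT7A from 17.8 ± 1.35 to 8.89 ± 0.512 CPM (-1.0 ± 0.09, adjusted p = 5.09e-14). WNT2B rose from 3.88 ± 1.07 to 6.9 ± 0.595 CPM (0.83 ± 0.17, adjusted p = 8.3e-05). With the offset the ligands counted 2 higher and 2 lower, and these 3 kept their call (-1.03, -0.72 and 0.68).

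Of the genes for ligand secretion and removal, WLS, which carries Wnt proteins to the surface, rose by 0.58 ± 0.10 and PORCN, which adds their lipid, by 0.44 ± 0.08 (0.80 with the offset). NOTUM, which removes that lipid, was at -0.68 ± 0.26 (adjusted p = 0.0214), and its call was lost with the offset (-0.23, adjusted p = 0.478), so that this list went from 2 higher and 1 lower of 3 to 2 higher and 0 lower. Among the 4 Frizzleds outside the members, only FZD8 was called (-0.44 ± 0.16, adjusted p = 0.0176), with a value of 0.00 with the offset, where another of the 4 was called lower. Both of these calls were also lost without any of 3 single libraries (NOTUM 0.055 to 0.183 without control replicate 1 or miR-497-5p replicate 1 or 3, FZD8 0.052 to 0.119 without control replicate 2 or 3 or miR-497-5p replicate 2). The other 28 of the 30 further genes named for RNA-seq at 72 h kept their call and direction under every alternative.

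Co-receptors and alternative receptors counted 1 higher and 2 lower of 5, and 2 higher and 2 lower with the offset. LRP5, the partner of LRP6, fell from 46.2 ± 0.168 to 27 ± 1.44 CPM (-0.77 ± 0.06), and PTK7, a receptor of the polarity branch, from 18.8 ± 1.53 to 9.23 ± 0.298 CPM (-1.02 ± 0.08). With the offset these were at -0.37 and -0.64, both still called. RYK, a receptor for WNT5A, rose from 73.7 ± 0.999 to 90.3 ± 2.41 CPM (0.29 ± 0.05, adjusted p = 7.82e-07), with 0.19 under the offset and 0.18 under library totals.

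Genes of receptor turnover counted 1 higher and 3 lower of 4, and 2 higher and 2 lower with the offset. RSPO3, a secreted ligand that protects Frizzleds, rose from 0.398 ± 0.104 to 2.32 ± 0.386 CPM (2.52 ± 0.33, adjusted p = 6.32e-09). ZNRF3, the ligase that removes Frizzleds, fell by 0.70 on the log2 scale and LGR4, a receptor for R-spondins, by 0.39 (-0.61 with the offset). Of 8 secreted antagonists, 4 rose and 1 fell (5 and 0 with the offset), among them DKK3 (0.33 ± 0.04), SFRP1 (0.32 ± 0.04) and DKK1 (0.24 ± 0.03), an inhibitor of LRP6. With the offset DKK3 was at 0.51 and DKK1 at 0.08 (adjusted p = 0.00327), and under library totals SFRP1 was at 0.21 and DKK1 at 0.13.

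In the nuclear list 4 rose and 11 fell of 17, and 5 rose and 6 fell with the offset. BCL9L, a co-activator bound by β-catenin, fell from 34.5 ± 0.938 to 9.85 ± 0.726 CPM (-1.81 ± 0.07, adjusted p = 2.39e-26), and TCF7 from 28.2 ± 0.752 to 15.1 ± 0.434 CPM (-0.90 ± 0.09, and -0.56 with the offset). PYGO1 rose by 0.64 ± 0.07, which became 0.29 with the offset. Canonical target genes counted 1 higher and 8 lower of 16 (2 and 5 with the offset). MYC fell from 84.9 ± 1.71 to 42.2 ± 2.74 CPM (-1.01 ± 0.05) and SP5 from 8.43 ± 0.648 to 3.73 ± 0.466 CPM (-1.17 ± 0.13, and -0.72 with the offset).

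Dishevelled and destruction complex genes counted 5 higher and 9 lower of 19 (7 and 9 with the offset), with CSNK1G2 at -0.79 ± 0.04, CSNK1D at -0.52 ± 0.04 and CSNK1A1, the kinase that primes β-catenin for destruction, at 0.47 ± 0.04. With the offset these were -0.34, -0.18 and 0.22, all still called. The polarity branch counted 2 higher and 6 lower of 12 (2 and 5 with the offset). SCRIB fell from 122 ± 1.59 to 46.2 ± 2.19 CPM (-1.40 ± 0.05) and CELSR1 by 0.87 (-0.52 with the offset), while DAAM1 rose by 0.86 ± 0.10. The calcium branch with NLK counted 7 higher and 0 lower of 13, with a median of 0.32, and 9 higher and 2 lower with the offset, with a median of 0.54. CAMK2D rose from 18.1 ± 1.38 to 38.4 ± 2.31 CPM (1.08 ± 0.07), PPP3CA from 46.3 ± 0.78 to 83.3 ± 5.88 CPM (0.85 ± 0.05) and PRKCA from 50.4 ± 0.89 to 76.7 ± 3.86 CPM (0.61 ± 0.05).

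**Figure D4:**
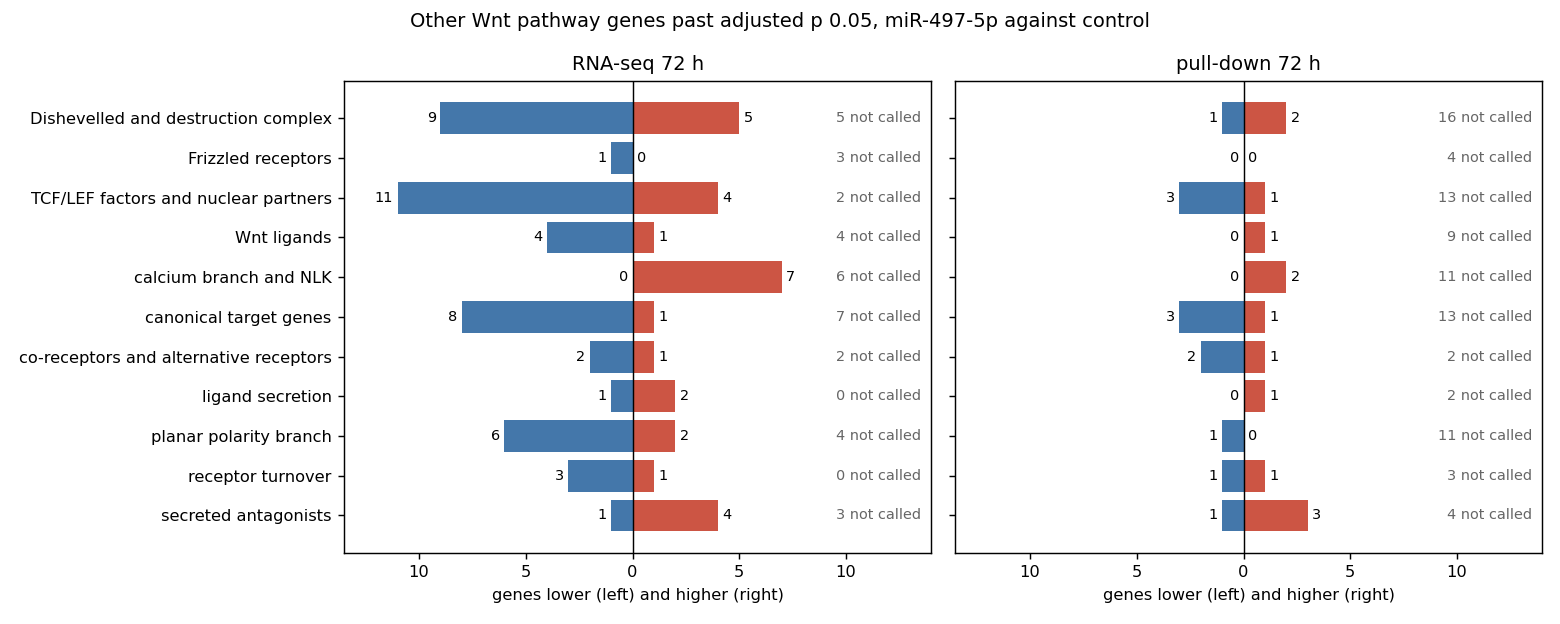
Numbers of further Wnt pathway genes called lower (blue, left) and higher (red, right) with miR-497-5p at 72 h in RNA-seq and pull-down, by list, with the number not called in grey. In RNA-seq the nuclear list counts 11 lower and 4 higher, canonical targets 8 lower and 1 higher, and the calcium branch 7 higher and 0 lower, before any offset for GC and length.

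In the 72 h pull-down 13 of 106 list genes were higher and 9 lower, 20.8% against 22.7% of all genes, and DESeq2 called 17 higher and 7 lower (14 and 7 with the offset in edgeR). CSNK1E, a casein kinase that acts on Dishevelled, went up between control and miR-497-5p from 801 ± 15.9 to 1420 ± 44.4 CPM (0.82 ± 0.09, adjusted p = 3.23e-07), with an RNA-seq value of 0.04 ± 0.04. CCND1, a cell cycle gene and Wnt target, was at 842 ± 41 CPM against 560 ± 6.84 CPM (0.59 ± 0.09, adjusted p = 3.62e-05), with an RNA-seq value of 0.03 ± 0.03 at 72 h and -0.32 at 12 h (adjusted p = 2.1e-10). RYK (0.82 ± 0.17), SFRP1 (0.74 ± 0.12), PORCN (0.71 ± 0.20), CSNK1A1 (0.49 ± 0.13), RSPO3 (2.41 ± 0.56), SFRP4 (2.43 ± 0.69), PYGO2 (0.53 ± 0.15), DKK3 (0.35 ± 0.11) and PPP3CA (0.35 ± 0.13) were higher in the pull-down as in RNA-seq.

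SCRIB (-1.33 ± 0.17), PTK7 (-0.91 ± 0.18), BCL9L (-0.95 ± 0.20), ZNRF3 (-1.43 ± 0.37), CSNK1D (-0.63 ± 0.10), TLE3 (-0.60 ± 0.18), TCF7 (-0.62 ± 0.21) and LRP5 (-0.53 ± 0.16) were lower in both. DKK1 was called lower in the pull-down (-0.32 ± 0.11, adjusted p = 0.0343) and higher in RNA-seq. CAMK2B (0.82 ± 0.24) and WNT4 (0.885 ± 0.734 against 0.0518 ± 0.0897 CPM) were called higher. The offset ended the pull-down calls of LRP5, TCF7, TLE3 and PPP3CA (adjusted p = 0.0812, 0.185, 0.0536 and 0.108). Of the 22 pull-down calls, 10 held under every alternative: RYK, PTK7, ZNRF3, RSPO3, SFRP1, CSNK1D, CSNK1E, BCL9L, CCND1 and SCRIB. Each of the other 12 was lost when at least 1 of the 6 libraries was left out, from CSNK1A1 (1 library, control replicate 2, adjusted p = 0.0617) to TCF7 and PPP3CA (5 libraries each, all but miR-497-5p replicate 2, 0.0503 to 0.176 and 0.0989 to 0.205).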

How the data were processed

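Per the submitters' processing notes and the series' design text, the authors trimmed paired reads with Trimmomatic 0.36, aligned them to GRCh38 with STAR 2.5.2b and counted unique reads in exons with featureCounts (Subread 1.5.2). The deposited values are whole-number counts for 57500 Ensembl identifiers in each of 24 libraries, with no normalization. No source used here states whether strand was used. Symbols came from GENCODE release 44 (56410 identifiers matched, 98.1%).

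The tests used edgeR 4.0.16 under R 4.3.3 (TMM, default filter on low counts, robust quasi-likelihood), over the 12 libraries of an assay, or of a time for contrasts between assays. In the fits over a time both assays shared each gene's spread, though variation was far larger in the pull-down. Standard errors and p-values of contrasts between assays, the control ones included, may thus understate the spread of the pull-down. Benjamini-Hochberg adjustment covered every gene tested in a fit, and calls are adjusted p under 0.05. The scripts were tested on simulated data. The members and lists were chosen with earlier results of these data known. The genes named are the 10 members; up to 3 genes per Wnt list with the smallest adjusted p in RNA-seq at 72 h; list genes called in a pull-down; and the 3 genes nearest to WNT5B in pattern. DESeq2 1.42.0 was an alternative, as were other scalings, no filter, a replicate block and leaving out libraries. The offset for transcript GC and length covered 99.1% of genes tested. The labels number the replicates without calling them separate cultures, so the p-values reflect the spread of these samples alone, which may be technical. Counting error sets a floor on precision at low counts.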

Additional observations from a re-analysis of the deposited data

Results flagged for a closer look

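The effect of miR-497-5p at 72 h differed between the assays for 3 members, by edgeR's test of their difference (pull-down less RNA-seq): WNT5B by 0.65, TCF7L1 by 1.09 and TCF7L2 by 0.85 on the log2 scale. The joint fit shared each gene's spread between the assays, so these calls may look firmer than the pull-down allows.

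Some members lay on opposite sides of control at 12 h and 72 h in all 3 treated libraries; the difference between times was not tested, because the 12 h values had chosen the list. The share of all genes that did the same is not given, so these members are not read as unusual. In RNA-seq at 12 h alone, 25.7% of all genes had groups without overlap. The members in RNA-seq were WNT5A (-0.23 at 12 h and 0.35 at 72 h), FZD6 (-0.33 and 0.07, the latter not called), TCF7L1 (0.09 ± 0.06 and -0.26) and CTNNB1 (-0.08 ± 0.05 and 0.41). In the pull-down it was TCF7L1 (-0.34 and 0.84). The 72 h RNA-seq value of TCF7L1 became 0.15, that of FZD6 -0.18 and that of WNT5A 0.11 with the offset for transcript GC and length, and that of CTNNB1 0.28.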

How the results depend on the processing

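Of the members' tested log2 fold changes, 598 of 660 values under an alternative kept their side of the threshold (27 of these, called in neither fit, lay on the other side of 0), 47 lost their call and 15 gained one. Of the 253 values for the untested 12 h mimic effects, 4 lay on the other side of 0. In the 6 cases where a value called in at least 1 of the fits changed sign, the alternative was the offset for transcript GC and length, chosen after seeing the data: in RNA-seq at 72 h FZD2 0.27, FZD6 -0.18, LRP6 -0.02 and TCF7L1 0.15, with FZD8 of the further genes at 0.00; in the control time course TCF7L2 0.22; and in the 72 h control pull-down against RNA-seq TCF7L2 0.44. Library totals gave 722 genes higher and 1746 lower in RNA-seq at 12 h (main 1256 and 919), 17 lower in the 12 h pull-down (main 47), 2085 higher and 747 lower for the 72 h pull-down effect minus the input effect (main 1260 and 1185), and members at 1 higher and 8 lower in the control time course and 1 higher in the 12 h control pull-down against RNA-seq. In the 12 h pull-down DESeq2 called 269 genes lower, no filter 108 higher and 109 lower, a fit of only the 6 libraries 12 lower and the offset 27 lower (main 57 higher and 47 lower). The offset gave 3024 genes lower in the 12 h control pull-down against RNA-seq (main 4587). Without the filter 1 member was called higher in the 72 h pull-down (main 3).

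Leaving out 1 library gave 590 to 988 genes lower in RNA-seq at 12 h, and 34 to 68 genes higher and 27 to 206 lower in the 12 h pull-down. It gave 1 to 2 members higher in the 72 h pull-down and 1 to 2 in the 12 h control pull-down against RNA-seq. At 12 h the fewest genes lower in RNA-seq (590) came without control replicate 2, and in the pull-down the fewest higher (34) without control replicate 2, the fewest lower (27) without miR-497-5p replicate 3 and the most lower (206) without control replicate 3.

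The replicate numbers did not pair the samples: the correlation of deviations between libraries of the same number ran from -0.17 to 0.20, and no pair of groups had all 3 over 0.1. A fit with the replicate block called 34 genes higher and 19 lower in the 12 h pull-down and ended the call of FZD2 in the 72 h pull-down (adjusted p = 0.0726). Depth limits FZD7, FZD1 and WNT5A in the 72 h pull-down, where a library held as few as 2, 10 and 44 reads. The causes of these changes were not tested.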
